A study of Mus musculus with 19 samples.

Results

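The genes described here encode the constant parts of the immunoglobulin light chains of the mouse and the variable parts of the lambda chain. They are Igkc of the kappa chain, and Iglc1, Iglc2, Iglc3, Iglv1, Iglv2 and Iglv3 of the lambda chain. They were chosen by gene symbol, with Igkc listed in lower case, and make up 7 of the 27179 genes listed. Their levels were measured by RNA-seq in the splenocytes of 19 mice of the FCG model, with 1 library per mouse. FCG mice came from C57BL/6J females bred with B6.Cg-Tg(Sry)2Ei Srydl1Rlb/ArnoJ males, whose testis-determining gene Sry is missing from the Y chromosome and sits as a transgene on autosome 3. Every mouse was injected intraperitoneally with heat-killed Streptococcus pneumoniae (HKSP), and the spleen was taken 1 week later and made into a cell suspension in which red blood cells were lysed.

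The groups were 5 XXF mice (XX sex chromosomes, ovaries), 4 XYF mice (XY without Sry, ovaries), 5 XXM mice (XX with the Sry transgene, testes) and 5 XYM mice (XY without Sry on the Y chromosome, with the transgene, testes). All groups share the C57BL/6 background and the immunization, and mice without HKSP were not analysed here, so the comparisons are between genotypes and not between states before and after immunization. Every male carried the transgene and no female did, so that testes and the transgene cannot be told apart. The sources used here give no age of the mice.

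An antibody pairs heavy chains with a light chain of either the kappa or the lambda type, and a B cell normally keeps a single type. A light chain is built from a variable (V), a joining (J) and a constant (C) segment that recombination brings together, and in the mouse most light chains are kappa. The mouse lambda locus has few segments, in which Iglv1 is joined mainly to the Iglc1 and Iglc3 clusters and Iglv2 and Iglv3 mainly to Iglc2, while plasma cells hold far more light chain RNA than resting B cells.

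Values are given as RPKM, reads scaled by gene length and library size, or as log2(RPKM + 1), the scale of all tests. Library sizes, recovered from the authors' values, lay between 11263753 reads (XYF F6) and 19962022 reads (XYM 13). Reads on Igkc lay between 50354 and 181877 per mouse, and reads on Iglv3 between 428 and 1345. The gene lengths with which the values became whole reads were 320 bases for Igkc and Iglc1 and 317 for Iglc2 and Iglc3, their spans in RefSeq, and 351 for Iglv1, 349 for Iglv2 and 369 for Iglv3.

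Some libraries stood apart. In XXM 5, Iglc1 was at 3387 RPKM and Iglv1 at 2546 RPKM, against at most 1183 and 1125 RPKM in any other mouse. XYF F9 and XYM 9 had summed myeloid marker levels of 46139 and 46781 RPKM, against at most 16445 RPKM in the other mice, and the lowest summed B, T and NK cell markers of their groups. Most of these myeloid sums was S100a8 (18939 and 18233 RPKM) and S100a9 (23224 and 24728 RPKM), so that myeloid-rich below refers mainly to these genes. Values without the libraries that stood apart are given for the main results. The titles of the libraries keep each group together in their numbering, so that an order of processing and the groups cannot be told apart.

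Igkc (Entrez Gene 16071) lies on chromosome 6 of GRCm38, the assembly of mm10, with its coding exon at chr6:70726435-70726754 on the plus strand. The lambda genes lie on the minus strand of chromosome 16. In GENCODE, the coding exons of Iglc1 (110785) are at chr16:19061755-19062071, of Iglc3 (110787) at chr16:19065368-19065681 and of Iglc2 (110786) at chr16:19198539-19198853. The V segments have 2 coding exons each and span chr16:19085017-19085460 (Iglv1, 16142), chr16:19241207-19241679 (Iglv3, 404743) and chr16:19260401-19260844 (Iglv2, 110612). Of 314 aligned coding bases of Iglc2 and Iglc3, 11 differ (96.5% equal), whereas Iglc1 shares 74.8% of aligned bases with Iglc2 and 75.4% with Iglc3. Iglv1 and Iglv2 differ at 11 of 351 bases (96.9% equal), and Iglv1 and Iglv3 share 56.1%. The first 150 bases of Iglc1 from its coding start, chr16:19061922-19062071, and the matching stretches of Iglc3, chr16:19065532-19065681, and Iglc2, chr16:19198703-19198852, all on the minus strand of GRCm38, show how far reads can tell the 3 constant genes apart. Capitals mark bases that differ from Iglc2 in the lines of Iglc1 and Iglc3, and from Iglc3 in the line of Iglc2.
Iglc1: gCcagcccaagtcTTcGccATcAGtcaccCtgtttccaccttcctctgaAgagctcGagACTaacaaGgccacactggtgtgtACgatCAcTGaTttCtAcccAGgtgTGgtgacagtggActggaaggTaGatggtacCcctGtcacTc
Iglc3: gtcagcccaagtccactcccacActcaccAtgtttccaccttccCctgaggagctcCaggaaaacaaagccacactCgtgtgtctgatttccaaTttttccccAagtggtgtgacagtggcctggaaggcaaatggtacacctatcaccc
Iglc2: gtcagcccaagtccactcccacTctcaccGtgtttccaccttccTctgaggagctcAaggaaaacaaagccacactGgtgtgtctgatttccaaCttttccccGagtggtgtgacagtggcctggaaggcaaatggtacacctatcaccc

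Iglc1 has 34 capitals in this stretch, while Iglc2 and Iglc3 have 7 each. With reads of 51 bases, 36 of the 265 windows of that length in Iglc2 (13.6%) also occur in Iglc3, and none of those in Iglc1 or Igkc occurs in another of the 7 genes. The sources used here do not say how reads with several matches were treated, so that the division of reads between Iglc2 and Iglc3 is uncertain, while Igkc and Iglc1 share no window. The same holds for Iglv1 and Iglv2, of which 73 of 301 windows (24.3%) are shared. Their stretches chr16:19085172-19085321 (Iglv1) and chr16:19260556-19260705 (Iglv2), minus strand of GRCm38, are set beside each other with the 4 bases that differ in capitals.
Iglv1: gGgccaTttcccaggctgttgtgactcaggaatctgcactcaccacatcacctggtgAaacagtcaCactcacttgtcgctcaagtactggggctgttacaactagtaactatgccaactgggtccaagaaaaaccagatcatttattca
Iglv2: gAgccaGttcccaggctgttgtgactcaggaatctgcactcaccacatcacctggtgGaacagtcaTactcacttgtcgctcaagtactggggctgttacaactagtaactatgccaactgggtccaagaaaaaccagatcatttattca

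Igkc was the gene with the highest RPKM of all 27179 in 16 of 19 mice and never below the third place, and took between 0.29% and 1.0% of all reads of a library. In XXF mice its level was 11477 (F1), 23244 (F2), 22026 (F3), 9048 (F4) and 13237 RPKM (F5). In XYF mice it was 28989 (F6), 25127 (F7), 31334 (F8) and 29850 RPKM (F9). All XXF mice lay below all XYF mice, with XXF F2 and F3 close under the XYF range and XXF F1, F4 and F5 far under it. In XXM mice Igkc was at 22052 (2), 18911 (5), 29846 (6), 22738 (7) and 19588 RPKM (8). In XYM mice it was at 22188 (9), 17246 (12), 27327 (13), 28607 (15) and 28914 RPKM (16). The male groups overlapped, since XXM 6 had the highest and XYM 12 the lowest value among males.

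As log2(RPKM + 1), Igkc was 13.85 ± 0.60 (SD, n = 5) in XXF, 14.45 ± 0.26 (SD, n = 5) in XXM, 14.57 ± 0.32 (SD, n = 5) in XYM and 14.81 ± 0.14 (SD, n = 4) in XYF mice. In that order XXM, XYM and XYF followed each other by less than the larger SD and overlapped, and XXF and XXM, the next pair, overlapped as well, so that only the ends of the order, XXF and XYF, were apart. The log2 difference of XXF vs. XYF was -0.96 (SE 0.43, 95% interval -1.87 to -0.05), a level 1.94-fold lower. It did not pass limma's threshold (adjusted p = 0.249 with Benjamini-Hochberg adjustment over 14186 genes, 0.0639 and so called with a spread that does not follow expression, 0.0639 to 0.852 over all alternatives), and the exact two-sided permutation p for this gene alone was 0.0317. The gap to the XYF mice was hardly smaller without the myeloid-rich XYF F9 (-0.94), but under quantile normalization, which sets the most abundant genes of every library to nearly equal values, it was -0.25. In XXM vs. XYM mice the difference was -0.13 (SE 0.41, adjusted p = 0.856 by limma, Benjamini-Hochberg, exact permutation p = 0.484), and lay from -0.25 without XYM 12 to -0.07 without XXM 5. Averaged over gonadal sex, XX vs. XY gave -0.54 (SE 0.30, adjusted p = 0.277 by limma, Benjamini-Hochberg), with an exact permutation p of 0.0178, and -0.12 under quantile normalization. The difference between the XX vs. XY effects in females and in males was -0.83 (SE 0.59, adjusted p = 0.41 by limma, Benjamini-Hochberg), so the effects were not shown to differ.

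Counted over the 7 genes, limma called 0 in XXF vs. XYF (1 at an unadjusted p under 0.05, Igkc), where 1.38% of the 14186 genes tested were called and 18.7% had an unadjusted p under 0.05. It called 0 in XXM vs. XYM (1 at an unadjusted p under 0.05, Iglc2), beside 2.96% of all genes called and 27.1% at that p, and 0 in XX vs. XY over both gonadal sexes (2 at an unadjusted p under 0.05, Iglc2 and Iglc3), beside 1.72% and 22.8%. In males vs. females it called 2 (2 at an unadjusted p under 0.05), Iglc3 and Iglv3, both higher in males, beside 7.32% of all genes called and 41.7% at an unadjusted p under 0.05. For the difference of the XX vs. XY effects between females and males it called 0 (0 at an unadjusted p under 0.05), beside 0.0846% and 21.0%. A call means an adjusted p under 0.1 and a log2 difference beyond the fold threshold given under the processing. The 7 genes all passed the filter on low values. Their median log2 difference was -0.16 in XXF vs. XYF, 0.31 in XXM vs. XYM, 0.07 in XX vs. XY and 0.25 in males vs. females, while the medians over all genes tested were 0.06, 0.01, 0.03 and 0.02. Exact permutation p values were computed for 35 gene and comparison pairs and are not adjusted.

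**Figure D1:**
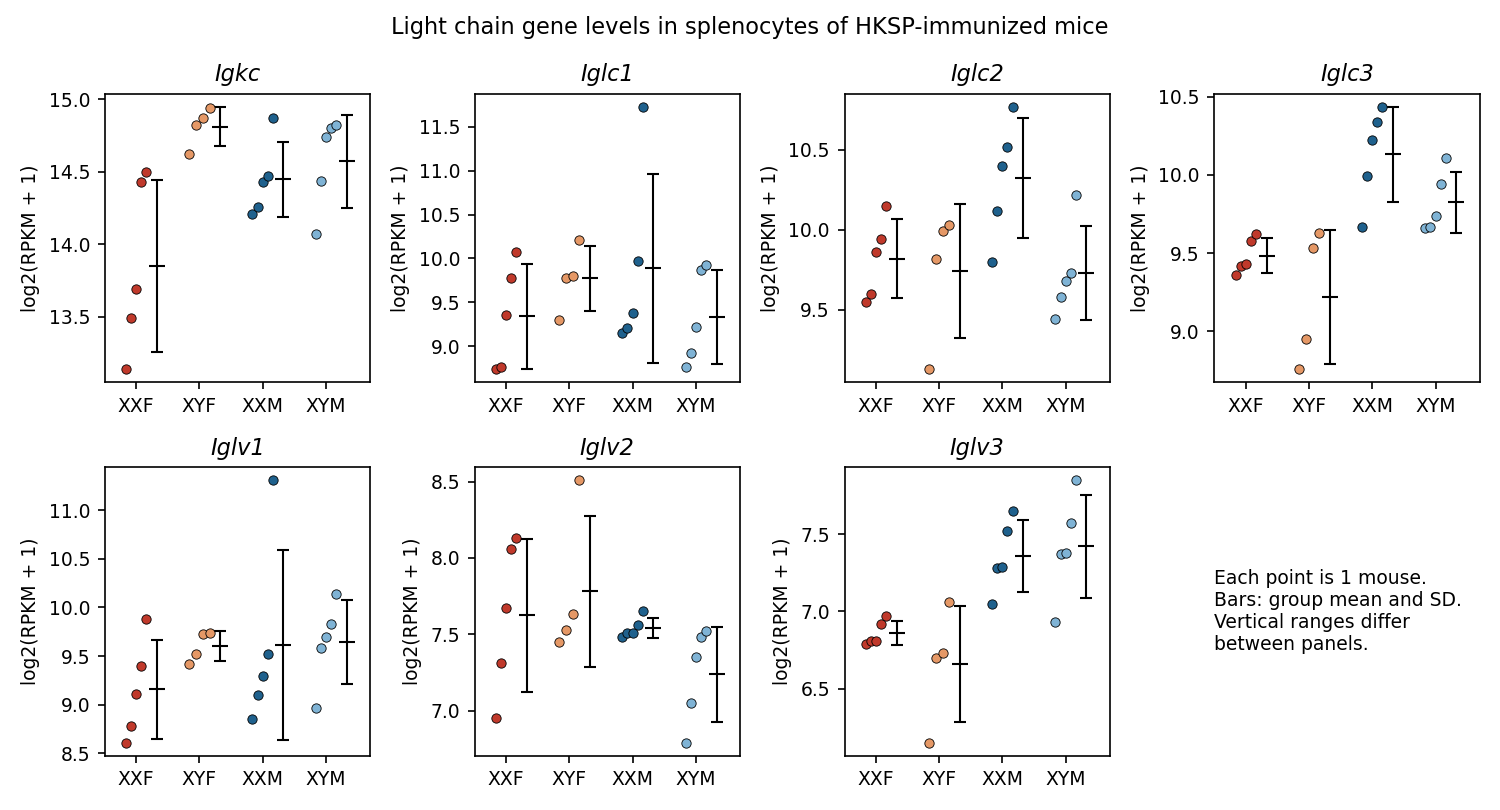
Levels of the 7 light chain genes, with log2(RPKM + 1) on the vertical axis and the 4 groups on the horizontal axis; each point is 1 mouse and the bars show the group mean and SD. Igkc is lower in all XXF than in all XYF mice, Iglc3 is higher in males than in females of either sex chromosome complement, and XXM 5 stands high for Iglc1 and Iglv1.

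Iglc1, the constant segment that follows Iglj1, had group means between 9.34 and 9.89 on the log2 scale and SDs within groups between 0.37 and 1.08. It was at 432 (F1), 880 (F2), 658 (F3), 427 (F4) and 1072 RPKM (F5) in XXF mice and at 1183 (F6), 892 (F7), 879 (F8) and 631 RPKM (F9) in XYF mice. In XXM mice it was at 999 (2), 3387 (5), 568 (6), 668 (7) and 591 RPKM (8), and in XYM mice at 483 (9), 432 (12), 937 (13), 966 (15) and 597 RPKM (16). XXM 5 was the sole mouse far from the others, and all groups overlapped. The log2 difference of XXM vs. XYM mice was 0.55 (SE 0.42, adjusted p = 0.389 by limma, Benjamini-Hochberg, exact permutation p = 0.405) and 0.09 without XXM 5. In XXF vs. XYF mice it was -0.43 (SE 0.44, adjusted p = 0.606 by limma, Benjamini-Hochberg, exact permutation p = 0.238). With a mouse left out it lay from -0.61 without XXF F5 to -0.28 without XXF F4.

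Iglc2, the constant segment that follows Iglj2, was at 750 (F1), 1133 (F2), 927 (F3), 776 (F4) and 982 RPKM (F5) in XXF and at 904 (F6), 1042 (F7), 1015 (F8) and 559 RPKM (F9) in XYF mice. In XXM mice it was at 1748 (2), 1470 (5), 1354 (6), 1113 (7) and 890 RPKM (8). In XYM mice it was at 692 (9), 817 (12), 766 (13), 1194 (15) and 850 RPKM (16). XXM 2, 5 and 6 lay above every XYM mouse, all 5 XXM mice lay above the XYM mean of the log2 values, and XYM 15 reached into the XXM range. The XXM vs. XYM difference was 0.59 on the log2 scale (SE 0.21), 1.51-fold, with an adjusted p of 0.112 by limma (Benjamini-Hochberg) and an exact permutation p of 0.0317. Its call depended on single mice, as it passed the threshold without XYF F9 (0.59), without XXM 8 (0.72) and without XYM 15 (0.72), and did not without any of the others. For females, XXF vs. XYF, it was 0.08 (SE 0.23, adjusted p = 0.867 by limma, Benjamini-Hochberg) and turned to -0.13 without XYF F9. The order of the group means was XYM, XYF, XXF and XXM, with 9.73 ± 0.30 (SD, n = 5), 9.74 ± 0.42 (SD, n = 4), 9.82 ± 0.25 (SD, n = 5) and 10.32 ± 0.38 (SD, n = 5), and the lower 3 groups differed by less than their SD.

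Iglc3, the constant segment of the Iglj3 cluster, followed gonadal sex. Females with XX chromosomes were at 765 (F1), 788 (F2), 657 (F3), 685 (F4) and 690 RPKM (F5), and XYF mice at 492 (F6), 793 (F7), 741 (F8) and 432 RPKM (F9). The XXM mice were at 1292 (2), 1193 (5), 1383 (6), 1016 (7) and 811 RPKM (8), and the XYM mice at 813 (9), 852 (12), 808 (13), 1106 (15) and 983 RPKM (16). Every XXM mouse lay above every XXF mouse and every XYM mouse above every XYF mouse, though the gaps were narrow, from 788 to 811 RPKM in XX and from 793 to 808 RPKM in XY mice. The male vs. female difference was 0.63 on the log2 scale (SE 0.13, 95% interval 0.35 to 0.90), 1.54-fold, with an adjusted p of 0.00274 by limma (Benjamini-Hochberg). The exact two-sided permutation p was 3.15e-05, the smallest these group sizes allow. The difference was 0.65 in XX and 0.61 in XY mice. XX vs. XY gave 0.29 (SE 0.13, adjusted p = 0.209 by limma, Benjamini-Hochberg, exact permutation p = 0.0362), with 0.27 in females and 0.31 in males. The Iglc3 difference in females was 0.11 without XYF F9, and the XX vs. XY value 0.19 without XYF F9 and XYM 9 together. By mean log2 level the groups ran from XYF (9.22 ± 0.43, SD, n = 4) through XXF (9.48 ± 0.11, SD, n = 5) and XYM (9.82 ± 0.20, SD, n = 5) to XXM (10.13 ± 0.31, SD, n = 5), and XYF overlapped with XXF and XYM with XXM, while all XXF mice lay below all XYM mice.

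The size of the Iglc3 difference was close to the fold threshold, so that the call was lost with single mice or with weights while its adjusted p was not. Without XYF F6 it was 0.58, without XYF F9 0.55, without XYF F9 and XYM 9 together 0.57 and with limma array weights 0.54. Over all alternatives the adjusted p by limma with Benjamini-Hochberg adjustment lay between 0.000429 and 0.00861. Rescaling every library to the same summed RPKM of all genes but the immunoglobulin genes, which also evens out the summed RPKM itself, moved the difference to 0.80, and moved the median of all genes in males vs. females from 0.02 to 0.16.

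Iglv1, the V segment with the highest level of the lambda locus, lay between 389 and 942 RPKM in XXF, 682 and 857 in XYF, 460 and 2546 in XXM and 502 and 1125 in XYM mice. XXM 5 held the highest value, and without it the XXM range ended at 732 RPKM. No comparison of Iglv1 was called, with log2 differences of -0.45 (SE 0.39, adjusted p = 0.532 by limma, Benjamini-Hochberg) in XXF vs. XYF and -0.03 (SE 0.36, adjusted p = 0.964) in XXM vs. XYM mice, the latter -0.45 without XXM 5. In females, 4 of 5 XXF mice lay below all XYF mice and XXF F5 above them.

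Iglv2, nearly identical to Iglv1 in sequence but joined mainly to Iglc2, was lower in level and lay between 123 and 278 RPKM in XXF, 174 and 365 in XYF, 177 and 200.5 in XXM and 109 and 183 in XYM mice. XYF F8 had the highest value and XYM 12 the lowest. The male vs. female difference was -0.31 (SE 0.16, adjusted p = 0.158 by limma, Benjamini-Hochberg, exact permutation p = 0.104) and -0.19 without XYF F8, and all 5 XYM mice lay below the XYF mean. The XXM vs. XYM difference was 0.31 (SE 0.23, adjusted p = 0.373 by limma, Benjamini-Hochberg, exact permutation p = 0.0556) and 0.19 without XYM 12.

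Iglv3, the V segment least like the other lambda V segments, was at 120 (F1), 111 (F2), 111 (F3), 110 (F4) and 125 RPKM (F5) in XXF mice and at 103 (F6), 105 (F7), 133 (F8) and 69.9 RPKM (F9) in XYF mice. In XXM mice it was at 182 (2), 199 (5), 155 (6), 154 (7) and 132 RPKM (8), and in XYM mice at 121 (9), 229 (12), 166 (13), 164 (15) and 189 RPKM (16). All XXM mice lay above all XXF mice, and 4 of 5 XYM mice above all XYF mice, with XYM 9 below XYF F8. The male vs. female difference was 0.63 (SE 0.12, 95% interval 0.37 to 0.88), 1.54-fold, with an adjusted p of 0.00159 by limma (Benjamini-Hochberg) and an exact permutation p of 0.00022. It was 0.50 in XX and 0.76 in XY mice. XX vs. XY differences were 0.20 in females (SE 0.18, adjusted p = 0.546 by limma, Benjamini-Hochberg), where Iglv3 fell to 0.03 without XYF F9, and -0.06 in males (SE 0.17, adjusted p = 0.819), where it was -0.14 without XXM 5 and -0.19 without XYM 9. The male vs. female call was lost without XYF F9 (0.54), without XYM 12 (0.57) and with limma array weights (0.56), through the fold threshold, while the adjusted p by limma with Benjamini-Hochberg adjustment lay between 0.000333 and 0.00379 over all alternatives.

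**Figure D2:**
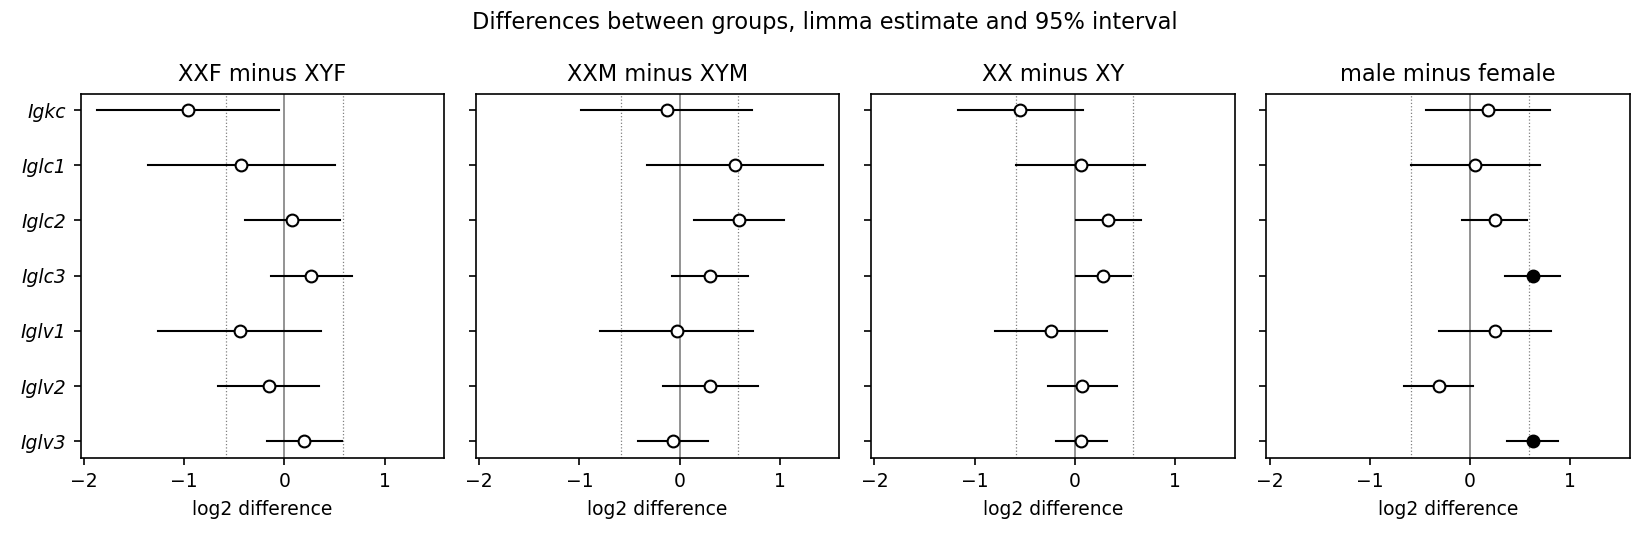
Log2 differences of the 7 genes between groups (horizontal axis, log2 scale) in 4 comparisons; circles are limma estimates, lines their 95% intervals, dotted lines the fold threshold, and filled circles the called genes. Iglc3 and Iglv3 are the called genes, both at 0.63 in males vs. females.

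The kappa to lambda balance was described in each mouse as the RPKM of Igkc over the summed RPKM of Iglc1, Iglc2 and Iglc3. The ratio was 5.89 (F1), 8.30 (F2), 9.82 (F3), 4.79 (F4) and 4.82 (F5) in XXF mice. In XYF mice it was 11.2 (F6), 9.22 (F7), 11.9 (F8) and 18.4 (F9). The XXF mice F1, F2, F4 and F5 lay below all XYF mice, and XXF F3 lay above XYF F7. In XXM mice the ratio was 5.46 (2), 3.13 (5), 9.03 (6), 8.13 (7) and 8.55 (8). In XYM mice it was 11.2 (9), 8.21 (12), 10.9 (13), 8.76 (15) and 11.9 (16). Here XXM 2, 5 and 7 lay below all XYM mice and XXM 6 and 8 lay within their range, so that XX and XY overlapped in females and in males, while each XX mouse lay below the mean ratio of the XY group with the same gonads.

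The mean ratio was 6.73 ± 2.24 (SD, n = 5) in XXF, 6.86 ± 2.504 (SD, n = 5) in XXM, 10.2 ± 1.61 (SD, n = 5) in XYM and 12.7 ± 3.98 (SD, n = 4) in XYF mice, and neighbours with the same sex chromosomes differed by less than the larger of their SDs. The difference of mean log2 ratios was -0.93 in XXF vs. XYF (1.90-fold lower), -0.66 in XXM vs. XYM (1.58-fold lower), -0.79 over both gonadal sexes and -0.15 in males vs. females (-0.02 without XXM 5), beside a pooled SD within groups of 0.47. No test was made of this ratio. Its genes, like all 7, were chosen with results of these data known, which also limits the p values of the single genes. Without XXM 5 the XXM vs. XYM difference was -0.40, without XYF F9 the XXF vs. XYF difference was -0.73, and without XYF F9 and XYM 9 together they were -0.73 and -0.62. Expressed as a share of the RPKM of the 4 constant genes, lambda made up 13.8% ± 3.67 (SD, n = 5) in XXF mice, 14.2% ± 6.01 (SD, n = 5) in XXM mice, and only 7.72% ± 1.92 (SD, n = 4) in XYF and 9.10% ± 1.37 (SD, n = 5) in XYM mice. The extremes were 5.15% in XYF F9 and 24.2% in XXM 5. XXM 5 raised the XXM mean, as the other XXM mice lay from 9.97% (6) to 15.5% (2). XXM 6 and 8 were within the XYM range of 7.75% to 10.9%.

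The parts of the ratio were as follows. In XXF vs. XYF mice the summed lambda constant genes had close means (2324 ± 431 RPKM, SD, n = 5, and 2391 ± 516 RPKM, SD, n = 4), and Igkc was lower. The XYF mean includes the low value of the myeloid-rich XYF F9 (1622 RPKM), while the other XYF mice lay between 2580 and 2726 RPKM. XXF F2 and F5 lay above these, and XXF F1, F3 and F4, at 1948, 2242 and 1888 RPKM, below them. In XXM vs. XYM mice Igkc overlapped (22627 ± 4344 and 24856 ± 5042 RPKM, SD, n = 5 each), and the summed lambda constant genes were 3696 ± 1466 and 2459 ± 501 RPKM (SD, n = 5 each), with XXM 2, 5 and 6 above all XYM mice. Much of that gap came from XXM 5, at 6050 RPKM, while the other XXM mice lay between 2292 and 4038 RPKM. Whether the XX vs. XY effects on the 7 genes differed between females and males was tested gene by gene, with 0 of 7 called as given above.

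**Figure D3:**
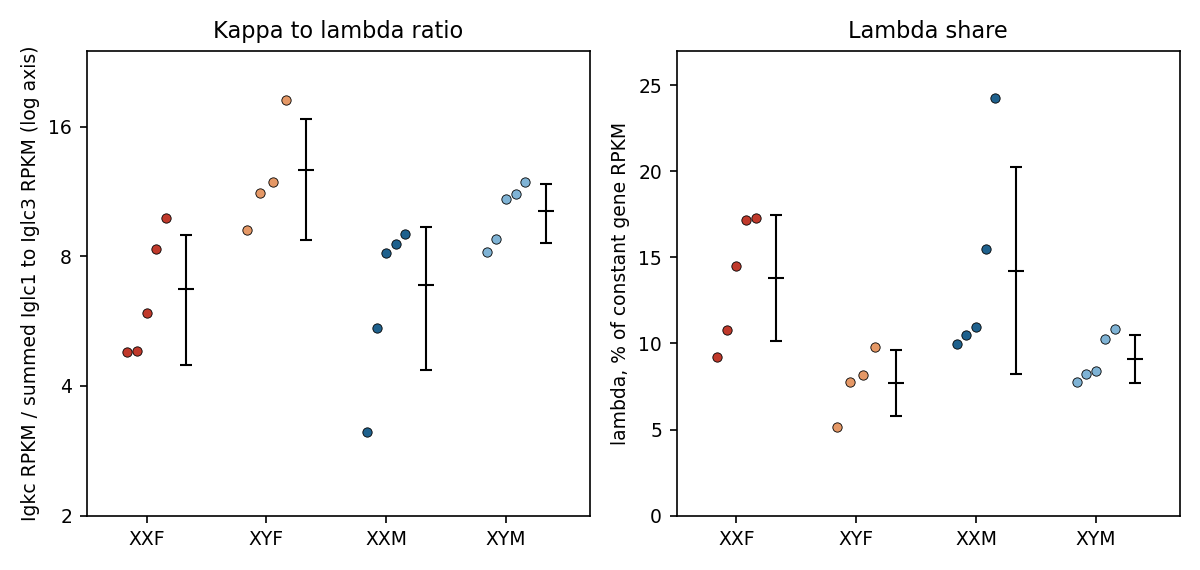
Kappa to lambda balance by mouse. The left panel shows the ratio of Igkc RPKM to the summed Iglc1, Iglc2 and Iglc3 RPKM on a log axis, the right panel the lambda share of constant gene RPKM in percent; points are mice and bars the group mean and SD of the plotted values. XX mice have the lower mean ratios, with single mice from 3.13 to 9.82 beside 8.21 to 18.4 in XY mice, and they overlap in females and in males.

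The V segments gave a lambda share that could be set beside that of the constant genes. Lambda V segments made up 9.68% ± 2.74 (SD, n = 5) of the V segment RPKM in XXF and 12.6% ± 7.62 (SD, n = 5) in XXM mice, against 6.96% ± 0.568 (SD, n = 4) in XYF and 7.01% ± 0.696 (SD, n = 5) in XYM mice. All XXM mice, from 8.31% to 26.0%, lay above all XYM mice, from 5.99% to 7.87%, and 4 of 5 XXF mice lay above all XYF mice. The denominator moved more than the lambda V segments did. The summed Igkv segments were at 8663 ± 1781 RPKM (SD, n = 5) in XXF and 14941 ± 2674 RPKM (SD, n = 4) in XYF mice, and at 9142 ± 1575 and 15300 ± 2896 RPKM (SD, n = 5 each) in XXM and XYM mice, with no overlap within either gonadal sex. With kappa and lambda both taken from the V segments, the log2 ratio difference was -0.48 in XXF vs. XYF and -0.78 in XXM vs. XYM mice, the latter -0.42 without XXM 5. With Igkc over the sum of Iglv1, Iglv2 and Iglv3 it was -0.64 and only -0.17, and without XXM 5 the latter turned to 0.22, so that in males both size and direction depended on how lambda was defined and on XXM 5.

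The make-up of lambda was set apart in XXM 5. Iglc1 made up between 17.2% (XXM 6) and 45.9% (XYF F6) of the summed constant RPKM in 18 mice and 56.0% in XXM 5. Iglc3 made up 37.6% ± 4.21 (SD, n = 5) in XYM and 25.7% ± 4.54 (SD, n = 4) in XYF mice, without overlap, and 33.1% ± 8.25 (SD, n = 5) and 31.6% ± 5.91 (SD, n = 5) in XXM and XXF mice, which overlapped. Iglv1 was the largest of the lambda V segments in all 19 mice, with 57.8% (XXM 6) to 87.1% (XXM 5) of their sum. In XXM 5 both Iglc1 and Iglv1 stood high, while Iglv2 at 177 RPKM was the lowest of the XXM mice.

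**Figure D4:**
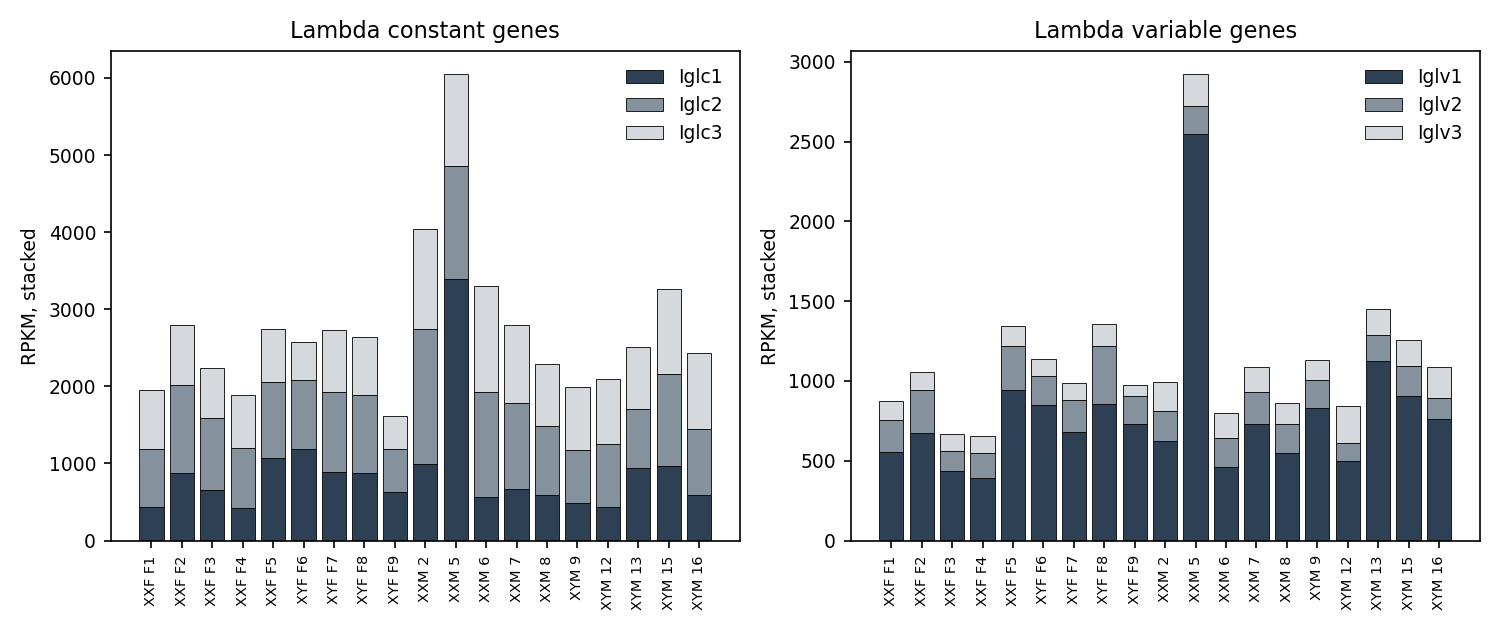
Stacked RPKM of the lambda constant genes (left) and lambda V segments (right) in each of the 19 mice. XXM 5 has the tallest bars through Iglc1 (3387 RPKM) and Iglv1 (2546 RPKM).

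Of the V and C segments that recombination mainly joins, Iglv1 and Iglc1 had the most closely correlated log2 levels over the 19 mice. Pearson's r was 0.84 (Spearman's rho 0.698) for Iglc1 and Iglv1, and 0.635 without XXM 5 and XYF F6, the mice farthest from the median of Iglc1. It was 0.242 (rho 0.386) for Iglc2 and Iglv2, 0.145 (rho 0.0596) for Iglc3 and Iglv1 and 0.504 (rho 0.351) for Iglc2 and Iglv3. Without XXM 2 and XYF F9 the Iglc2 values were 0.293 with Iglv2 and 0.221 with Iglv3. Without XYF F9 and XXM 6 the Iglc3 and Iglv1 value was 0.347. With the group means taken out, r was 0.891 for Iglc1 and Iglv1, 0.323 for Iglc2 and Iglv2, 0.0648 for Iglc3 and Iglv1 and 0.606 for Iglc2 and Iglv3. Among other pairs, for Iglc2 and Iglc3 r was 0.75 (rho 0.56), and 0.586 without XXM 2 and XYF F9. Iglc3 and Iglv3, which differed between males and females, had an r of 0.784 (rho 0.802) over all mice, 0.736 without XYF F9 and XXM 6, and 0.551 with the group means taken out. Igkc was only weakly correlated with the 6 lambda genes, with r from 0.0168 (Iglv3) to 0.25 (Iglv1), and from -0.24 (Iglv3) to 0.0447 (Iglv2) without XXF F4 and F1. These values describe 19 mice that share groups, libraries and cell mixtures, and no p was computed. Reads that match both Iglc2 and Iglc3 could also tie these genes to each other.

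The joining segments, which lie before the constant genes, were listed as genes of their own. Each lambda J segment went with its constant gene, with r = 0.843 for Iglj1 and Iglc1 (rho 0.726), 0.855 for Iglj2 and Iglc2 (rho 0.821) and 0.818 for Iglj3 and Iglc3 (rho 0.781) over 19 mice. Of the 3 lambda J segments limma called 1 in males vs. females, Iglj3, which like Iglc3 was higher in males (log2 difference 0.65, SE 0.18, adjusted p = 0.0125, Benjamini-Hochberg), by 0.49 in XX and 0.82 in XY mice. It called 0 of the 3 in XXF vs. XYF and 0 in XXM vs. XYM mice (0 in each at an unadjusted p under 0.05). Of the 5 kappa J segments, Igkj4 (-0.71, SE 0.24, adjusted p = 0.0993 by limma, Benjamini-Hochberg) and Igkj5 (-0.73, SE 0.18, adjusted p = 0.0616) were called lower in XXM than in XYM mice, where Igkc itself was not. XX vs. XY over both gonadal sexes called both, at -0.63 (adjusted p = 0.0544 by limma, Benjamini-Hochberg) and -0.62 (adjusted p = 0.0179). In XXF vs. XYF mice they were -0.56 and -0.51 and not called. Of all genes, 2.96%, 1.72% and 1.38% were called in these comparisons. Igkj2 (0.73) and Igkj3 (1.22) were called higher in males than in females, with adjusted p values of 0.00554 and 0.00268 by limma (Benjamini-Hochberg), beside 7.32% of all genes called in that comparison.

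Of the 103 kappa V segments listed, 101 were tested. In XXF vs. XYF mice 1 was called higher and 5 lower, in XXM vs. XYM mice 0 higher and 7 lower, over both gonadal sexes 1 higher and 17 lower, and in males vs. females 7 higher and 3 lower, beside 1.38%, 2.96%, 1.72% and 7.32% of all genes called in these comparisons. Their median log2 difference was -0.48 in females and -0.41 in males for XX vs. XY, with 81 and 83 of 101 lower, beside medians of 0.06 and 0.01 over all genes tested. The 5 other light chain segments with the highest mean RPKM were Igkv1-110 (1432), Igkv5-39 (1166), Igkj2 (965), Igkj5 (829) and Igkj1 (722). Igkv5-39 was at a mean of 505 RPKM in XXF, 3679 in XYF, 130 in XXM and 853 in XYM mice. Igkv1-110 was at a mean of 248 RPKM in XXF, 353 in XYF, 2090 in XXM and 2823 in XYM mice. Both had lower means in XX than in XY mice, in females and in males, as Igkc had, but differed between males and females far more than Igkc did.

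Some genes of plasma cells varied over the mice as Igkc did, at far lower levels. In bulk splenocytes fewer plasma cells and less RNA per plasma cell cannot be told apart. By flow cytometry the paper reports a higher percentage of plasma cells in XXF than in XYF mice, with a similar trend in males. It also reports more IgM-secreting cells specific for HKSP in XX than in XY mice of either gonadal sex. The sources used here do not say whether the sequenced mice were among those measured. Of 10 plasma cell markers, Tnfrsf17 (log2 difference -0.92, SE 0.22, adjusted p = 0.06 by limma, Benjamini-Hochberg) and Derl3 (-0.78, SE 0.18, adjusted p = 0.0473) were called lower in XXF than in XYF mice and 0 higher, with 3 of 10 not lower (Irf4 0.32, Mzb1 0.20 and Prdm1 0.00) and a median of -0.43. In XXM vs. XYM mice limma called 0 (3 at an unadjusted p under 0.05, beside 27.1% of all genes), with 3 of 10 higher and a median of -0.20. Over both gonadal sexes Derl3 was called lower, and in males vs. females Irf4 higher. Of all genes, 1.38%, 2.96%, 1.72% and 7.32% were called in these comparisons. The summed markers were at 885 (F1), 1660 (F2), 1654 (F3), 795 (F4) and 1086 RPKM (F5) in XXF mice and at 1949 (F6), 1668 (F7), 2044 (F8) and 1478 RPKM (F9) in XYF mice. The XXF mice with the lowest Igkc, F1, F4 and F5, were those with the lowest marker sums. In XXM mice the sums were 1547 (2), 1477 (5), 1118 (6), 1446 (7) and 1359 RPKM (8) and in XYM mice 1708 (9), 1194 (12), 1697 (13), 1847 (15) and 1229 RPKM (16). XXM 6, with the highest Igkc of the XXM mice, had their lowest marker sum. Jchain, which encodes the chain that links antibody multimers, was the most abundant of these markers (mean 957 RPKM), and none was at 0 in any mouse. The sums largely follow Jchain, which held 459 of 885 RPKM in XXF F1 and 1494 of 1949 RPKM in XYF F6. The part of plasma cell number in the Igkc result was not tested.

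Over 19 mice, Pearson's r of Igkc was 0.759 with Jchain (rho 0.561), 0.48 without XXF F4 and F1, and -0.168 with Cd79b, the signalling chain of the B cell receptor (rho -0.286). For Iglc3 it was the other way, with r = 0.856 with Cd79b (rho 0.753), 0.839 without XYF F9 and XXM 6 and 0.755 with the group means taken out, and -0.226 with Jchain (rho -0.221). Iglc2 and Cd79b had an r of 0.82 (rho 0.765) and Iglv3 and Cd79b of 0.743 (rho 0.621). Again the mice share groups and cell mixtures.

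**Figure D5:**
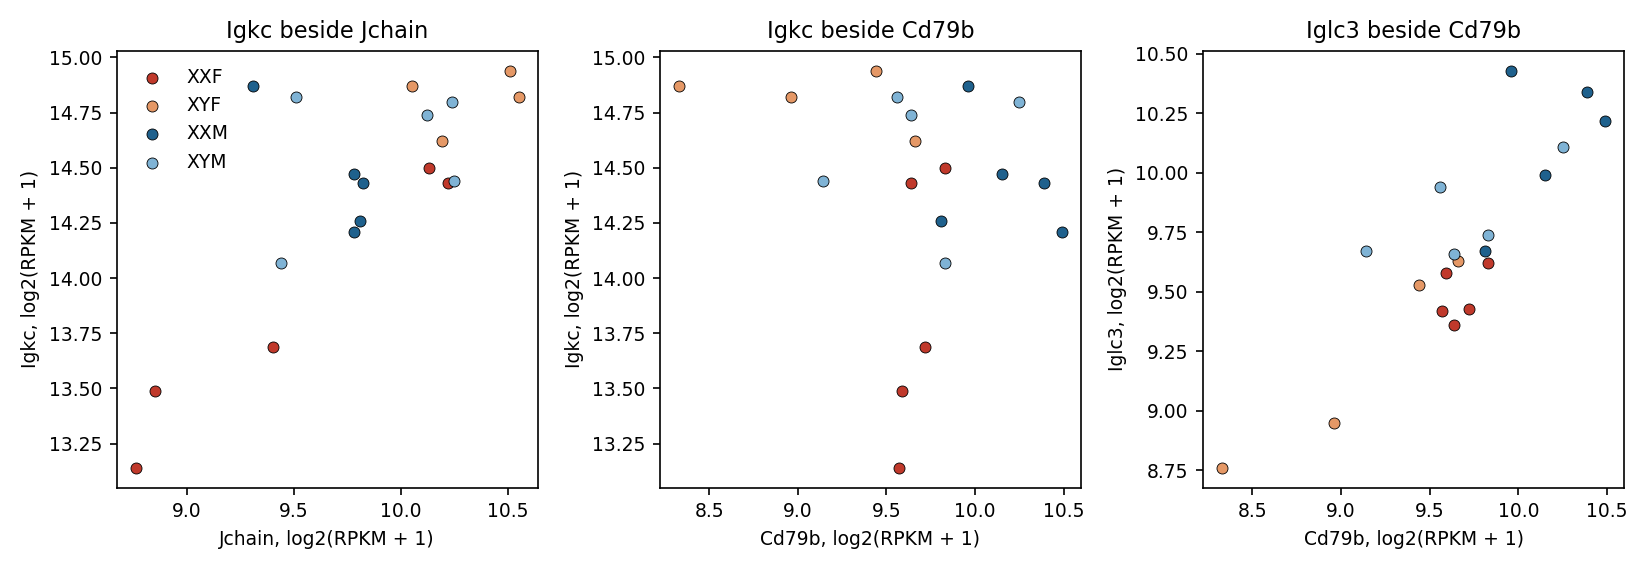
Levels in 19 mice, as log2(RPKM + 1) on both axes, of Igkc beside Jchain (left) and Cd79b (middle) and of Iglc3 beside Cd79b (right); colours are the groups. Igkc rises with Jchain (r = 0.759) and not with Cd79b (r = -0.168), while Iglc3 rises with Cd79b (r = 0.856).

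B cell markers were higher in males than in females, as Iglc3 and Iglv3 were. Of 12 tested, 9 were called higher and 0 lower, beside 7.32% of all genes called, with a median log2 difference of 0.64. Cd79a, a signalling chain of the B cell receptor, was higher by 0.60 (SE 0.12, adjusted p = 0.00227 by limma, Benjamini-Hochberg), a size like those of Iglc3 and Iglv3. Blk and Cr2 were called higher in XXF vs. XYF mice, Pax5 in XXM vs. XYM mice and Cr2 over both, beside 1.38%, 2.96% and 1.72% of all genes. In XXF vs. XYF mice 11 of 12 markers were higher (median 0.46, 8 at an unadjusted p under 0.05 by limma), and Iglv3 differed by 0.20. In XXM vs. XYM mice 9 of 12 were higher (median 0.20), and Iglv3 differed by -0.06. The Iglc3 differences were 0.27 and 0.31. The summed B cell markers were at 3575 (F1), 3398 (F2), 2952 (F3), 3360 (F4) and 3290 RPKM (F5) in XXF and 1918 (F6), 3042 (F7), 3236 (F8) and 1649 RPKM (F9) in XYF mice. They were at 4717 (2), 5168 (5), 4659 (6), 4699 (7) and 4339 RPKM (8) in XXM and 2777 (9), 4480 (12), 3762 (13), 4607 (15) and 4292 RPKM (16) in XYM mice. XYF F6 and F9, the mice with the lowest Iglc3, also had the lowest B cell sums, and XXM 5, with the highest sum, was among the highest mice for all 3 constant genes. Cd79b was the most abundant (mean 865 RPKM) and no marker was at 0. Their part in the result was not tested.

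Other cell types differed as well. Among all genes tested, 1.38% were called in XXF vs. XYF, 2.96% in XXM vs. XYM, 1.72% in XX vs. XY and 7.32% in males vs. females. T cell markers were called lower in males for 9 of 10 (median -1.24), and 4 of 10 were called lower in XXM than in XYM mice, with sums of 1148 to 1493 RPKM in XXF, 540 to 1402 in XYF, 345 to 487 in XXM and 323 to 676 in XYM mice and Cd3g the most abundant (mean 168 RPKM). Erythroid markers were called lower in males for 8 of 8 tested, and Hba-a1 and Hba-a2 higher in XXM than in XYM mice. Their sums were 12817 to 28787 RPKM in XXF, 15795 to 48061 in XYF, 7323 to 14529 in XXM and 1592 to 14682 in XYM mice, mostly Hbb-bs (mean 10148 RPKM). Of 7 NK cell markers, XXF mice exceeded XYF mice with a call for 6 and XXM mice exceeded XYM mice for 3, and Klra8 was called higher in males, with sums of 405 to 544 RPKM in XXF, 87.5 to 252 in XYF, 344 to 422 in XXM and 67.2 to 303 in XYM mice and Gzma the most abundant (mean 201.1 RPKM). Of 10 myeloid markers, Ly6c2 was called lower in XXM vs. XYM mice and in XX vs. XY mice, and Cd14 lower in males. Their sums were 4294 to 6088 RPKM in XXF, 7600 to 46139 in XYF, 4373 to 6503 in XXM and 3298 to 46781 in XYM mice, with S100a9 the most abundant (mean 4978 RPKM). No marker of these lists was at 0 in any mouse, and their part in the results was not tested.

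Light chains pair with heavy chains. Of 9 heavy chain and J chain genes, 4 were called lower in XXF than in XYF mice, Ighg3 (log2 difference -2.14), Ighg2b (-1.85), Ighg2c (-1.77) and Ighg1 (-1.21), and in XXM vs. XYM mice Ighg2c alone (-2.17, SE 0.38, adjusted p = 0.0121 by limma, Benjamini-Hochberg). Their median was -0.85 and -0.45 in these comparisons, and Ighg2b, Ighg3 and Ighg2c were called lower in XX vs. XY mice over both gonadal sexes. In males vs. females Ighg3 (2.45), Ighg2b (1.68), Ighd (0.97) and Ighg1 (0.70) were called higher and Ighg2c (-1.08) lower. Among all genes tested, 1.38%, 2.96%, 1.72% and 7.32% were called in these comparisons. Ighm, the constant gene of IgM, had the highest level, with a mean of 5976 RPKM in XXF, 9346 in XYF, 5437 in XXM and 6715 in XYM mice, and over 19 mice Pearson's r was 0.613 with Igkc (rho 0.591, 0.473 without XXF F4 and F1) and -0.521 with Iglc3 (rho -0.437, -0.342 without XYF F9 and XXM 6, -0.139 with the group means taken out). Ighe was at 0 in some mice.

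Of 16 factors that act on light chain promoters and enhancers, 6 were called higher in males than in females, where Iglc3 and Iglv3 were too, beside 7.32% of all genes called (14 of 16 at an unadjusted p under 0.05, beside 41.7%). They were Ebf1 (0.90), Spib (0.79), Irf4 (0.73), Mef2c (0.70), Rel (0.69) and Pax5 (0.66), and the median was 0.53. Of these Pax5, the factor that keeps B cell identity and the most abundant of the list (mean 283 RPKM), was called in XXM vs. XYM mice as well (0.90, SE 0.22, adjusted p = 0.0602 by limma, Benjamini-Hochberg). The lists are not separate, since Pax5 is also a B cell marker and Irf4 a plasma cell marker above. Jchain is in both the plasma cell and the heavy chain lists. B cell markers were higher in males by a similar size (median 0.64, 9 of 12 called). In XXF vs. XYF mice limma called 0 of the factors (7 at an unadjusted p under 0.05, beside 18.7% of all genes), with 14 of 16 higher. Of 12 genes of recombination and the surrogate light chain 10 were tested and limma called 0 in any comparison (at an unadjusted p under 0.05 were 0 in XXF vs. XYF, 2 in XXM vs. XYM, 3 in XX vs. XY, 2 in males vs. females and 1 for the difference of effects, beside 18.7%, 27.1%, 22.8%, 41.7% and 21.0% of all genes). Their most abundant gene was Vpreb3 (mean 64.6 RPKM), and Rag2, Vpreb2 and Igll1 were at 0 in some mice.

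The genes most like Igkc over the 19 mice, among 14179 tested genes outside the 7, were Derl3 (r = 0.893, rho 0.907), Edem2 (0.876, rho 0.682), Xbp1 (rho 0.668, by r between Edem2 and the next), Bhlha15 (0.807, rho 0.588) and Hsp90b1 (0.799, rho 0.66). Without XXF F4 and F1 they had r of 0.89, 0.72, 0.651, 0.595 and 0.64, so that Derl3 alone was hardly changed. Derl3, Edem2 and Hsp90b1 act in the folding and degradation of proteins in the endoplasmic reticulum, and Xbp1 and Bhlha15 encode transcription factors of secretory cells. Most like the summed lambda constant genes were Rtca (0.893, rho 0.881), Iglj1 (0.887, rho 0.804), Rraga (0.865, rho 0.868), Ryr1 (0.86, rho 0.711) and Borcs7 (0.855, rho 0.704). Without XXM 5 and XYF F9 they had r of 0.866, 0.749, 0.798, 0.812 and 0.744. Most like the log2 kappa to lambda ratio were Wdr62 (0.791, rho 0.818), Eef1akmt3 (0.789, rho 0.711), Skp2 (0.771, rho 0.656), Derl3 (0.77, rho 0.861) and Igkv6-23 (0.768, rho 0.719), with r of 0.689, 0.651, 0.578, 0.883 and 0.673 without XXM 5 and XYF F9. These are the highest of many correlations over mice that share groups and cell mixtures, given as a description.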

How the data were processed

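The authors sequenced splenocyte RNA of 19 mice in pairs of 51 bases, aligned the reads to mm10 with Subread and counted them on genes with featureCounts, per the labels and the study's methods. The sources used here give no versions, annotation, strand or multiple-match settings, and the labels and the methods name different library kits. The authors deposited log2 values, which equal log2(RPKM + 1) with 0.0001 added. RPKM of all genes, and library sizes and whole reads of the 7 genes, were recovered from them. limma 3.58.1 in R 4.3.3 fitted the deposited log2 values of 14186 genes (RPKM 0.5 or more in 4 or more mice) with a mean for each of 4 groups and an empirical Bayes spread that follows expression, with Benjamini-Hochberg adjustment. The study used EdgeR with the same thresholds of 0.1 and 0.585; EdgeR was not run here. Exact two-sided permutation tests of single genes permuted mice within a gonadal sex or, for males vs. females, within the same sex chromosomes. Coding sequences came from GENCODE M21 and gene identifiers from RefSeq, both of GRCm38, read with biopython 1.88. Other steps ran in Python 3.11.15 with scipy 1.17.1, pandas 2.3.3, numpy 2.4.6 and matplotlib 3.10.9.

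Named were the 7 genes, the 5 genes most correlated with Igkc, with summed lambda constant genes and with their log2 ratio, the 5 other light chain segments of highest mean RPKM, and of each list the called genes and the most abundant gene. Lists covered heavy chain partners, recombination, light chain factors and markers of plasma, B, T, myeloid, erythroid and NK cells. J segments and other kappa V segments named beyond this were chosen after their values were seen. The 7 genes and the lists were chosen with earlier results of these data known. The labels give each replicate as a separate mouse; p values measure the spread between these mice. Alternatives were other pseudocounts, filters, scalings, spreads, weights and thresholds, other definitions of the ratio and each mouse left out.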

Additional observations from a re-analysis of the deposited data

Results flagged for a closer look

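In 2 of 32 groups of values (the 7 genes and the log2 kappa to lambda ratio in 4 groups), 1 mouse lay far from the rest of the group; chance flags about 1 in 20 groups. Iglv1 in XXM 5 was the highest of the XXM mice by a gap of 0.729 of their whole range on the log2 scale, at 11.31 against 8.85 to 9.52. The same library held the highest Iglc1 and a lambda share of 24.2%, and its Igkc of 18911 RPKM was the lowest of the XXM mice. Iglv2 in XYF F8 was the highest of the XYF mice by a gap of 0.834 of their range, at 8.51 against 7.45 to 7.63, while Iglv1, with which Iglv2 shares 24.3% of its windows of 51 bases, was at 9.74 in that mouse and at most 9.73 in the other XYF mice.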

How the results depend on the processing

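Of 1099 log2 differences of the 7 genes under alternatives, 1050 kept direction and call, 37 changed direction, 7 lost and 5 gained a call. With an untrended spread 1 gene, Igkc, was called in XXF vs. XYF (limma with Benjamini-Hochberg, adjusted p = 0.0639, range over alternatives 0.0639 to 0.852). In XXM vs. XYM 1, Iglc2, was called with array weights, and 0 to 1 with a mouse left out (1 without XYF F9, XXM 8 or XYM 15). In males vs. females 0 were called with array weights, 1 without XYF F9 and XYM 9 together, and 0 to 2 with a mouse left out (0 without XYF F9, 1 without XYF F6 or XYM 12).

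Turned were Iglc2 in XXF vs. XYF (-0.03 with array weights, -0.13 without XYF F9 and XYM 9), Iglc1 (-0.07 without them) and Iglv3 (-0.02 with array weights, -0.08 without them) in XX vs. XY, Igkc under quantile normalization (0.00 in XXM vs. XYM, -0.04 in males vs. females), and the Iglc3 difference of XX vs. XY effects (0.14 with equal summed RPKM outside immunoglobulin genes, 0.22 under quantile normalization). The log2 ratio turned in males vs. females (0.13 with Iglc1 alone, 0.19 for medians) and in the difference of effects (0.15 with Iglc1 alone, 0.30 for all V segments), and fell to -0.17 in XXM vs. XYM with lambda as the Iglv sum. Without XXM 5 the Iglv sum gave 0.22 there, -0.21 in XX vs. XY, 0.16 in males vs. females and -0.87 for the difference of effects, and all V segments gave 0.02 in males vs. females. With a mouse left out it lay from -1.08 to -0.73 in XXF vs. XYF, -0.78 to -0.40 in XXM vs. XYM and -0.22 to -0.02 in males vs. females.

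With a mouse left out, directions that turned ranged as follows. Iglc2 in XXF vs. XYF went from -0.13 to 0.17 (turned by XXF F2, XYF F9) and Iglv2 from -0.28 to 0.09 (XXF F3, XYF F8). In XXM vs. XYM, Iglv1 from -0.45 to 0.16 (XXM 2, 6 and 8, XYM 13 and 15) and Iglv3 from -0.19 to 0.04 (XXM 8, XYM 12). In XX vs. XY, Iglc1 from -0.17 to 0.15 (XXF F5, XYF F9, XXM 5, XYM 12) and Iglv3 from -0.02 to 0.13 (XYF F9). In males vs. females, Iglc1 from -0.18 to 0.15 (XXF F1 and F4, XYF F9, XXM 5, XYM 13 and 15). In the difference of effects, Iglc3 from -0.19 to 0.10 (XYF F7 and F8, XXM 2 and 6, XYM 13) and Iglv1 from -0.61 to 0.01 (XXM 5).

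Genes called of all tested ranged over alternatives and over mice left out from 88 to 345 and 56 to 850 in XXF vs. XYF (196 above), 85 to 1115 and 51 to 1213 in XXM vs. XYM (420), 164 to 983 and 148 to 518 in XX vs. XY (244), 957 to 5468 and 837 to 1253 in males vs. females (1039) and 0 to 1910 and 0 to 1694 for the difference of effects (12). Equal summed RPKM outside immunoglobulin genes gave 739 higher and 479 lower in males (278 and 761 above) and 54 and 147 in XXM vs. XYM (161 and 259), and median ratios 65 and 119 in XXF vs. XYF (95 and 101). Equal RPKM outside immunoglobulin genes moved the median of all genes to -0.10 in XXM vs. XYM and to 0.16 in males vs. females. Without XYF F9, XYF F9 and XYM 9, or XXM 5, these also moved by more than 1.5 times: Iglv2 in XXF vs. XYF (-0.27 without XYF F9), Iglc2 in XX vs. XY (0.20 without both) and in males vs. females (0.14 without XYF F9), Iglv1 in XX vs. XY (-0.45) and in males vs. females (0.04) without XXM 5, and in the difference of effects Iglc1 (-0.52 without XXM 5), Iglv3 (0.09 without XYF F9) and the log2 ratio (-0.08 without XYF F9, -0.53 without XXM 5). Other scalings or weights moved, by as much, Igkc in XX vs. XY (-0.12 under quantile normalization) and in the difference of effects (-0.25), Iglc2 in XXM vs. XYM (0.39), Iglc3 in XXF vs. XYF (0.14 with array weights) and XXM vs. XYM (0.14 under quantile normalization), and Iglv2 in XXM vs. XYM (0.17) and males vs. females (-0.14) with equal summed RPKM outside immunoglobulin genes. Differences smaller than 0.1 moved so under many alternatives. Causes were not tested. No paired analysis was possible because no replicate number is shared between groups. Few mice, mixed cells, 1 time point, chosen genes and shared reads limit all results.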
